A study of Homo sapiens with 6 samples.

Results

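The TNF superfamily of ligands and the TNF receptor superfamily were followed in SiHa cells with BRCA1 overexpression. SiHa is an established human line that was derived from a cervical squamous carcinoma. The members were all protein-coding genes whose symbol begins with TNFSF or TNFRSF and a number, together with TNF, LTA, LTB, LTBR, FAS, FASLG, CD40, CD40LG, CD27, CD70 and NGFR. The rule gave 44 members, 18 ligands and 26 receptors, among 58174 genes. Cells of the OV-BRCA1 group carried the GV230-BRCA1 plasmid (n = 3 samples), and cells of the NC group carried the empty GV230 vector (n = 3 samples). Both groups were transfected with Lipofectamine 3000 and harvested 48 h later for RNA sequencing, so the reagent and the vector backbone are common to all 6 samples. The comparison asks which members differ in mRNA level between cells with added BRCA1 and cells with the vector alone. Transfection was transient and in a single cell line. BRCA1 itself stood at 37.1 ± 3.18 FPKM with the BRCA1 plasmid and 18.9 ± 3.56 FPKM with the vector (SD, n = 3 for both; log2 fold change 0.95, limma adjusted p = 0.00373), in the direction of the labels. FPKM scales the fragments of a transcript to its length and to the mapped fragments of the sample, so levels can be set side by side between genes. The values were deposited without counts, and the depth behind them was estimated at 13.6 to 19.1 M fragments per sample.

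TNF superfamily ligands are mostly trimeric proteins of the cell surface that can also be shed, and they act by clustering their receptors. Receptors with a death domain recruit adaptors such as FADD or TRADD and can start a caspase cascade or NF-kB signalling. Receptors without it bind TRAF adaptors, which lead to canonical or non-canonical NF-kB and to MAP kinases. Decoy receptors bind ligand without passing on a death signal. Several ligands of the family are costimulators that antigen-presenting cells show to lymphocytes, and some are found on carcinoma cells as well.

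Of the 44 members, 21 (6 ligands and 15 receptors) reached 0.5 FPKM in at least 3 samples and were tested, and 17 stood at 1 FPKM or more in every sample. The other 23 lay below that minimum, and 4 of these (CD40LG, FASLG, TNFSF11 and TNFRSF13B) were listed at 0 in all 6 samples. CD70, a costimulatory ligand for T cells, had the highest level, with a mean of 396 FPKM over the 6 samples. TNFRSF12A (Fn14), the receptor for TWEAK, followed with 199 FPKM, and TNFSF9 (4-1BB ligand) with 90.1 FPKM. Next came the lymphotoxin beta receptor LTBR with 69.2 FPKM, TNFRSF1A (TNFR1) with 37.6 FPKM and TNFRSF10B (the TRAIL receptor DR5) with 28.4 FPKM. The cells thus held far more mRNA for these costimulatory ligands than for the receptors that bind them, since CD27, the receptor of CD70, had at most 0.203 FPKM and TNFRSF9, the receptor of TNFSF9, at most 0.0386 FPKM.

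**Figure D1:**
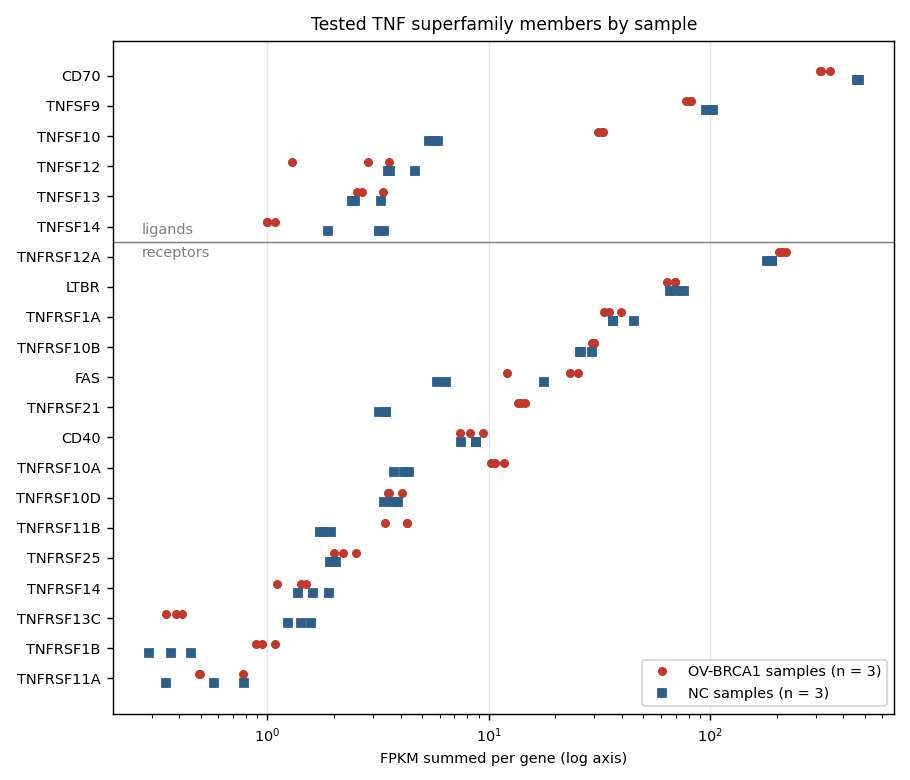
FPKM per gene on a log axis for the 21 tested members, ligands above and receptors below the line. Circles are the 3 OV-BRCA1 samples and squares the 3 NC samples. CD70 and TNFRSF12A lie at the high end, and TNFSF10, TNFRSF21 and TNFRSF10A show the widest gaps with the OV-BRCA1 samples to the right.

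Between the groups, 10 of the 21 tested members passed an adjusted p below 0.05 in limma, with 6 higher after BRCA1 overexpression and 4 lower. Over all 16321 genes tested the same criterion called 35.3%, 16.4% higher and 18.9% lower. With an absolute log2 fold change above 1 added, 3 members were DEGs and all of them were upregulated, TNFSF10, TNFRSF21 and TNFRSF10A, while 3.99% of all genes were DEGs (2.89% upregulated and 1.1% downregulated). The calls were 1 ligand higher and 3 lower of 6 tested, and 5 receptors higher and 1 lower of 15 tested, and these splits were not tested against each other. The median log2 fold change was -0.42 for the tested ligands and 0.11 for the tested receptors, against -0.04 for all genes tested. The groups did not overlap for 11 tested members, 7 with all OV-BRCA1 values above and 4 with all below, where 50.8% of all genes tested did not overlap (23.4% above and 27.4% below). TNFRSF1B reached the minimum level only through the OV-BRCA1 samples and TNFRSF13C only through the NC samples, so these 2 members, the latter being the only receptor called lower, could enter the test only by differing. A lower value in a bulk sample cannot tell fewer cells with the mRNA from less mRNA per cell.

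**Figure D2:**
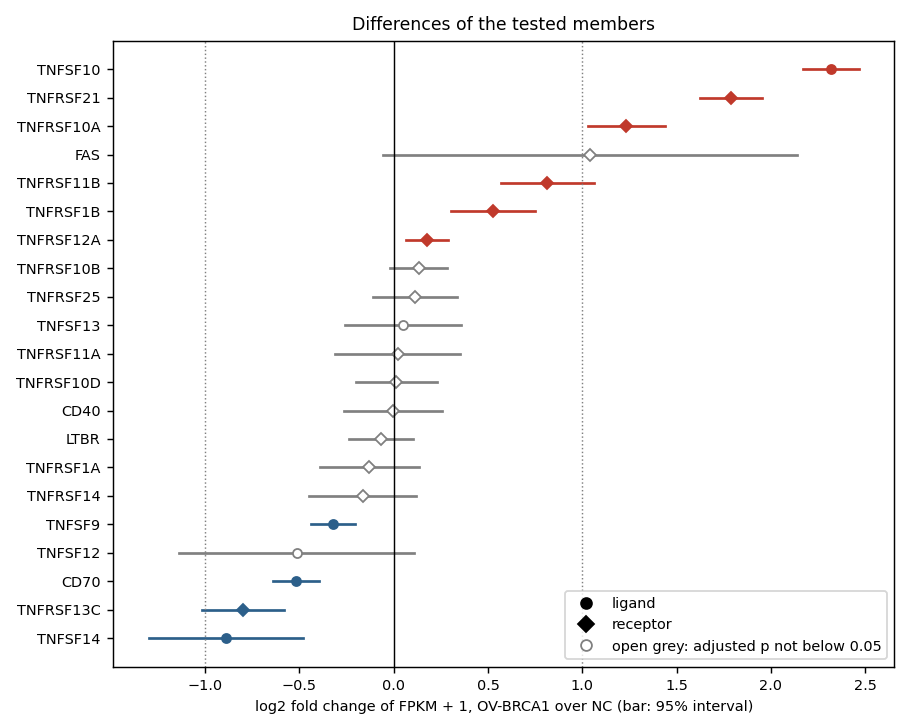
Log2 fold change of FPKM + 1, OV-BRCA1 over NC, for the 21 tested members, with 95% intervals from limma. Circles are ligands and diamonds receptors; filled symbols passed an adjusted p below 0.05, and dotted lines mark a log2 fold change of 1 in either direction. TNFSF10 (2.32), TNFRSF21 (1.79) and TNFRSF10A (1.23) lie beyond the right line.

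Among the death-inducing ligands, TNFSF10 (TRAIL), which triggers apoptosis through DR4 and DR5, was upregulated. It lies on chromosome 3 from 172505508 to 172523507 (GRCh38). Its level was 31.0, 32.7 and 32.6 FPKM in the OV-BRCA1 samples 1, 2 and 3 but only 5.92, 5.64 and 5.37 FPKM in NC samples 1, 2 and 3. The groups were far apart, at 32.1 ± 0.952 against 5.65 ± 0.273 FPKM (SD, n = 3 each), a ratio of 5.69. The log2 fold change was 2.32 (SE 0.06, limma adjusted p = 4.63e-06), and the NC values rested on about 162 to 193 fragments per sample. Most of the level in 5 samples came from the protein-coding transcript TNFSF10-201, with 89.9% to 97.2% of the gene's FPKM, and in NC sample 1 its share was 65.3%. FASLG, the other death-inducing ligand, was listed at 0 in every sample.

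The stretch upstream of TNFSF10 is shown with those of 3 further members, TNFRSF21, TNFRSF1B and TNFSF9, to set the letters before the start beside the direction of the change: 2 DEGs and the other tested members with an interferon motif. The sequences are from RefSeq (GRCh38.p14), written 5′ to 3′ on the strand of the gene, and they were searched for an interferon-stimulated response element core (GAAA, any 2 bases, GAAA) on both strands. Bases inside an annotated transcript of the gene were left out, so the TNFSF10 stretch ends 77 bases and the TNFSF9 stretch 27 bases before the RefSeq start. Capitals mark the matches.
TNFSF10 (chr3:172523508-172523680, minus strand): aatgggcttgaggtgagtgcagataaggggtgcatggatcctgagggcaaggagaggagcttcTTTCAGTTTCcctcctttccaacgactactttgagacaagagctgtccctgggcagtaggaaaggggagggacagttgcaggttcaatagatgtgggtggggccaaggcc
TNFRSF21 (chr6:47309906-47310155, minus strand): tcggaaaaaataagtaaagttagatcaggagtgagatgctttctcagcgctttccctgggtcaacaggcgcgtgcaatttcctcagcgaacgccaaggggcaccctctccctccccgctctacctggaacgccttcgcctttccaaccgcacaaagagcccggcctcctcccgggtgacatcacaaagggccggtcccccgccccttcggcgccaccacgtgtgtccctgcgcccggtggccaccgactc
TNFRSF1B (chr1:12166741-12166990, plus strand): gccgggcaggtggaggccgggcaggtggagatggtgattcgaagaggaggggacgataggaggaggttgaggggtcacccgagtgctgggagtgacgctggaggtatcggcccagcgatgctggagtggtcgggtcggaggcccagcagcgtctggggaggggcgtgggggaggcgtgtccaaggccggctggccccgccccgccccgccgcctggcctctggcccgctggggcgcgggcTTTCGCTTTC
TNFSF9 (chr19:6530776-6530998, plus strand): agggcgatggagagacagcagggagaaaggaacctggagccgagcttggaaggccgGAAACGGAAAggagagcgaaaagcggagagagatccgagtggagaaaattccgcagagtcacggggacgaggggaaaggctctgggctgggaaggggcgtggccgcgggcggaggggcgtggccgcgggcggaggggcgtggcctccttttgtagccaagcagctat

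In TNFSF10 the match TTTCAGTTTC lay at bases -187 to -178 from the RefSeq start, and in TNFRSF1B the match TTTCGCTTTC ended at base -1. In TNFSF9 the match GAAACGGAAA lay at bases -194 to -185, and the TNFRSF21 stretch held none. TNFSF10, with a match, had risen in the test, and TNFSF9, also with a match, had fallen. The table held 37 promoters of 28 members, 12 of them tested, some overlapping within a gene. This core was in the 250 bases before the start in 5 promoters (of FASLG, TNFRSF1B, TNFSF10, TNFSF13B and TNFSF9), while 3.02% of all 35116 promoters had it. An NF-kB motif (GGGA, any 2 bases, TTCC) was in 3 promoters, of LTB and TNFRSF9, and in 1.40% of all promoters. An AP-1 motif (TGANTCA) was in 6, of CD27, FAS, TNFRSF9, TNFSF14 and TNFSF15, and in 6.57% of all promoters. A STAT motif of the GAS kind (TTCNNNGAA) was in 6, of LTA, LTB, TNFRSF9 and TNFSF11, and in 6.57% of all promoters. Both strands were searched for each, and the shortest motifs read the same on both. A match describes letters in this window and is no measured binding site.

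The receptors of TRAIL moved unequally. TNFRSF10A (DR4), a death receptor on chromosome 8 from 23190452 to 23225126, had 10.3, 10.7 and 11.8 FPKM in the OV-BRCA1 samples and 4.34, 3.74 and 4.13 FPKM in the NC samples. It was upregulated 2.68-fold, from 4.07 ± 0.306 to 10.9 ± 0.766 FPKM (SD, n = 3 each), with a log2 fold change of 1.23 (SE 0.08, limma adjusted p = 0.000176). TNFRSF10B (DR5), the more abundant death receptor for TRAIL, stood at 29.9, 29.8 and 29.4 FPKM against 25.9, 26.1 and 29.1 FPKM. All OV-BRCA1 values of TNFRSF10B lay above all NC values, but the log2 fold change of 0.13 (95% interval -0.02 to 0.28) did not pass (limma adjusted p = 0.147). Its protein-coding transcripts alone summed to 17.5 ± 4.38 against 15.9 ± 5.52 FPKM (SD, n = 3 each), with overlapping groups (log2 fold change 0.16, limma adjusted p = 0.710). The retained-intron transcript TNFRSF10B-208 held 12.2%, 34.7% and 40.7% of the level in the OV-BRCA1 samples and 2.42%, 28.6% and 50.9% in the NC samples. Over all transcripts, TNFRSF10A made up 26.9% ± 1.55 of the sum of both death receptors with BRCA1 and 13.1% ± 1.08 with the vector (SD, n = 3 for both; exact permutation p = 0.1, two-sided, the smallest that 3 against 3 allows).

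Among the receptors that bind TRAIL without a death signal, TNFRSF11B (osteoprotegerin), a secreted decoy that also binds RANKL, was higher in the OV-BRCA1 group. Its values were 4.27, 4.26 and 3.39 FPKM against 1.72, 1.93 and 1.80 FPKM, with a log2 fold change of 0.81 (SE 0.10, limma adjusted p = 0.00186). TNFRSF10D (DcR2), a decoy of the cell membrane, had 3.71 ± 0.321 against 3.66 ± 0.255 FPKM (SD, n = 3 each), and the 95% interval of its log2 difference ran from -0.20 to 0.23. The sum of DR4 and DR5 over all transcripts was 40.6 ± 0.503 against 31.1 ± 1.87 FPKM (exact permutation p = 0.1), and the sum of TNFRSF10D and TNFRSF11B was 7.69 ± 0.740 against 5.48 ± 0.191 FPKM (exact permutation p = 0.1; SD, n = 3 each). The ratio of these sums, death receptors over decoys, was 5.32 ± 0.595 against 5.67 ± 0.151, and the groups overlapped (exact permutation p = 0.4, SD, n = 3 each). TNFRSF10C (DcR1), the remaining decoy, had 0.231 to 0.373 FPKM against 0.463 to 0.535 FPKM, all of it on a transcript that GENCODE release 29 assigns to the noncoding gene AC107959.4, so its level as a decoy receptor is uncertain.

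**Figure D3:**
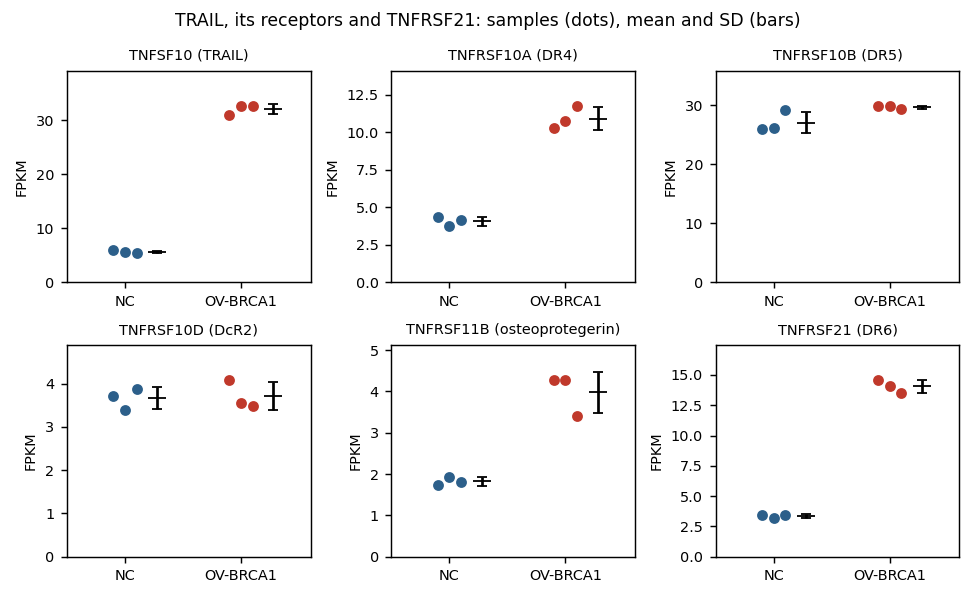
FPKM of TNFSF10 (TRAIL), 4 of its receptors and TNFRSF21 in each sample, on linear axes that start at 0. Dots are samples, and the bar beside them is the mean with SD (n = 3). TNFSF10, TNFRSF10A, TNFRSF11B and TNFRSF21 were higher in the OV-BRCA1 group, while TNFRSF10B and TNFRSF10D did not pass the test.

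TNFRSF21 (DR6), a death domain receptor, was the other upregulated DEG among the receptors. It lies on chromosome 6 from 47231532 to 47309905 and had 14.6, 14.1 and 13.5 FPKM in the OV-BRCA1 samples and 3.43, 3.19 and 3.44 FPKM in the NC samples. The groups stood clearly apart, with 14.1 ± 0.519 against 3.35 ± 0.143 FPKM (SD, n = 3 each), a ratio of 4.19 and a log2 fold change of 1.79 (SE 0.07, limma adjusted p = 1.58e-05). The other death domain receptors did not pass. TNFRSF1A, the main receptor for TNF, had 35.9 ± 3.24 against 39.4 ± 5.14 FPKM, and TNFRSF25 (DR3) had 2.24 ± 0.264 against 1.99 ± 0.0686 FPKM (SD, n = 3 each). The 95% intervals of their log2 differences were -0.39 to 0.13 and -0.11 to 0.33. NGFR, the low-affinity neurotrophin receptor, was below the minimum, with 0.147 to 0.179 FPKM against 0.0186 to 0.0909 FPKM.

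FAS, the receptor of FASLG, varied within both groups. Its level was 23.2, 12.0 and 25.4 FPKM in the OV-BRCA1 samples and 17.8, 6.39 and 5.86 FPKM in the NC samples, so NC sample 1 exceeded OV-BRCA1 sample 2. The log2 fold change of 1.04 (SE 0.45, 95% interval -0.05 to 2.14) did not pass (limma adjusted p = 0.124). Without NC sample 1 it was 1.51 with a limma adjusted p of 0.0228, and FAS passed in no other alternative run. The high samples owed much of their level to transcripts at the 3′ end of the gene that GENCODE classes as processed transcripts without a coding sequence. FAS-218 had 12.1, 0 and 12.6 FPKM in the OV-BRCA1 samples and at most 0.205 FPKM in the NC samples, and FAS-219 had 7.47 FPKM in NC sample 1 and at most 0.721 FPKM elsewhere. Summed over protein-coding transcripts alone, FAS had 6.09 ± 2.20 against 3.27 ± 1.53 FPKM (SD, n = 3 each), with overlapping groups (log2 fold change 0.74, limma adjusted p = 0.153). FAS overlaps ACTA2 on the opposite strand, which fell (log2 fold change -0.77, limma adjusted p = 0.00253), and how the quantification used strand is not given in the sources used here.

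The tested costimulatory ligands, CD70 and TNFSF9, fell, and so did TNFSF14. CD70 had 347, 314 and 315 FPKM in the OV-BRCA1 samples and 470, 463 and 466 FPKM in the NC samples. Its mean changed from 466 ± 3.50 to 326 ± 18.6 FPKM (SD, n = 3 for both), with a log2 fold change of -0.52 (SE 0.05, limma adjusted p = 0.000686). TNFSF9, the ligand of 4-1BB, a costimulatory receptor on T cells, had 81.7, 80.8 and 77.6 FPKM against 103, 101 and 96.1 FPKM, a log2 fold change of -0.32 (SE 0.05, limma adjusted p = 0.00366). TNFSF14 (LIGHT), a ligand of LTBR and of TNFRSF14 (HVEM), was much less abundant, with 0.994, 0.992 and 1.08 FPKM against 1.88, 3.36 and 3.18 FPKM. The OV-BRCA1 samples were nearly level and the NC samples spread over a wider range, and the log2 fold change was -0.89 (SE 0.17, limma adjusted p = 0.00894). On the log2(FPKM + 1) scale the fall of such a low gene is understated, and without NC sample 1 or with a pseudocount of 0.1 TNFSF14 counted as a DEG (log2 fold change -1.08 and -1.33).

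These 3 ligands are neighbours on chromosome 19, from 6530999 to 6670588, a span of 139.6 kb. TNFSF9, CD70 and TNFSF14 were all called lower in the OV-BRCA1 group, as were 18.9% of all genes tested, and no other member lies in this span. RPL7P50, a pseudogene inside the span, had a log2 fold change of -0.20 (limma adjusted p = 0.499) and TUBB4A on the left had 0.31 (adjusted p = 0.104). The complement gene C3 on the right also passed as lower, with -0.16 (limma adjusted p = 0.0482). In the group of TRAIL receptor genes on chromosome 8, 3 members were tested over 205.0 kb. Of these 1 passed, TNFRSF10A, where 35.3% of all genes tested passed. AC100861.1, which overlaps TNFRSF10A on the opposite strand, had a log2 fold change of 0.41 (limma adjusted p = 0.0594). CHMP7, the next expressed gene beyond both, had 0.79 (limma adjusted p = 0.0133). TNFRSF10A-AS1, antisense to TNFRSF10A and overlapping it, had a log2 fold change of 0.51 (limma adjusted p = 0.00699), and the reads of the overlap cannot be told apart without strand. On chromosome 12, neither TNFRSF1A nor LTBR passed.

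Of the receptors that signal through TRAF adaptors, 7 of 15 were tested and 3 passed (42.9%, beside 35.3% of all genes), TNFRSF1B and TNFRSF13C among them. TNFRSF12A had 219, 212 and 205 FPKM in the OV-BRCA1 samples and 191, 181 and 189 FPKM in the NC samples, a log2 fold change of 0.18 (SE 0.05, limma adjusted p = 0.0259). The groups did not overlap, but the difference was small, and the call was lost when OV-BRCA1 sample 1 or 2 or any NC sample was left out (limma adjusted p = 0.0505 to 0.0783), with no minimum level (0.0505) and with protein-coding transcripts only (0.404). TNFRSF1B (TNFR2), the second receptor for TNF, had 0.946, 0.891 and 1.08 FPKM against 0.454, 0.367 and 0.292 FPKM, a log2 fold change of 0.52 (SE 0.09, limma adjusted p = 0.00668). TNFRSF13C, the receptor for BAFF on B cells, went the other way, with 0.386, 0.410 and 0.349 FPKM against 1.57, 1.24 and 1.42 FPKM, a log2 fold change of -0.80 (SE 0.09, limma adjusted p = 0.00125). Both lay near the minimum level. TNFRSF1B rested on about 42.5 to 54.4 fragments per OV-BRCA1 sample and 20.6 to 26.1 per NC sample, and TNFRSF13C on about 18.8 to 26.0 and 88.7 to 107.

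The other tested receptors of this kind did not pass. CD40, the receptor of CD40LG, had 8.34 ± 1.02 against 8.34 ± 0.749 FPKM, and the 95% interval of its log2 difference ran from -0.26 to 0.26. LTBR had 67.6 ± 3.02 against 70.9 ± 5.40 FPKM, with an interval from -0.23 to 0.10. TNFRSF14 had 1.34 ± 0.210 against 1.63 ± 0.267 FPKM, and TNFRSF11A (RANK) had 0.587 ± 0.161 against 0.569 ± 0.219 FPKM (SD, n = 3 each for all 4). The intervals for TNFRSF14 and TNFRSF11A were -0.45 to 0.12 and -0.31 to 0.35.

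The transcripts of LTBR and TNFRSF14 are given beside their gene totals, which did not pass. Of 15 LTBR transcripts the groups did not overlap for 4, where 19.3% of all transcripts with at least 0.05 FPKM in any sample did not overlap. The protein-coding transcript LTBR-201 had 25.3, 18.2 and 22.9 FPKM in the OV-BRCA1 samples and 13.0, 8.27 and 10.7 FPKM in the NC samples, without overlap, while LTBR-209, also protein-coding and the most abundant in the NC group, ranged from 16.4 to 31.0 FPKM against 28.3 to 34.8 FPKM. These are estimates of how overlapping transcripts share fragments and were not tested transcript by transcript, and the sum of the protein-coding LTBR transcripts did not pass (log2 fold change 0.12, limma adjusted p = 0.463). LTBR overlaps SCNN1A on the opposite strand, which fell (log2 fold change -0.96, limma adjusted p = 0.00113). SCNN1A ends at 6377730, and LTBR-201 and LTBR-209 lie beyond it, from 6384033 and from 6385119. The protein-coding transcripts of TNFRSF14 summed to 0.0178, 0.433 and 0.0130 FPKM in the OV-BRCA1 samples and 0.706, 0.798 and 0.696 FPKM in the NC samples. In a test restricted to protein-coding transcripts TNFRSF14 had a log2 fold change of -0.61 (limma adjusted p = 0.0316), but only its NC samples reached the minimum level there, so it could enter that test only by differing.

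**Figure D4:**
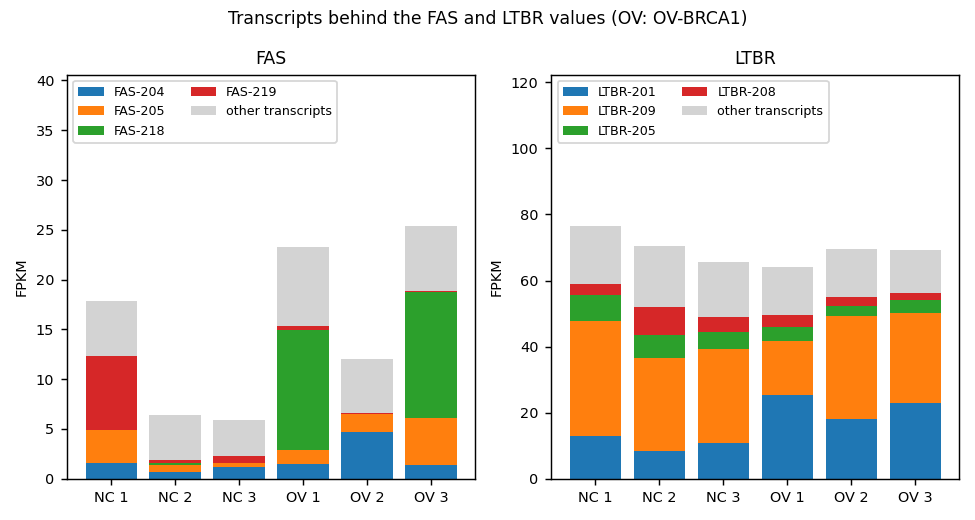
FPKM of FAS and LTBR in each sample, stacked by transcript; grey is the sum of the remaining transcripts. FAS-218 fills much of the bar in OV-BRCA1 samples 1 and 3 and is absent in OV-BRCA1 sample 2, FAS-219 stands out in NC sample 1, and LTBR-201 is larger in the OV-BRCA1 samples within LTBR totals of like height.

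Of the remaining ligands, TNFSF13 (APRIL) had 2.85 ± 0.407 against 2.72 ± 0.466 FPKM and TNFSF12 (TWEAK), the ligand of TNFRSF12A, had 2.56 ± 1.15 against 3.91 ± 0.625 FPKM (SD, n = 3 each). Neither passed, with 95% intervals of the log2 difference from -0.26 to 0.36 and from -1.14 to 0.11. The TNFSF12 log2 fold change of -0.52 was -0.23 without OV-BRCA1 sample 2 and -1.24 with protein-coding transcripts only (limma adjusted p = 0.293 and 0.115). Both genes share sequence with the readthrough gene TNFSF12-TNFSF13, which was listed at 0 in 5 samples and at 0.718 FPKM in OV-BRCA1 sample 2, the sample with the lowest TNFSF12 value (1.30 FPKM), so the split between these genes is uncertain. TNF had at most 0.195 FPKM, and LTA, LTB, TNFSF4, TNFSF15 and TNFSF18 at most 0.200 FPKM in any sample. The B-cell ligand TNFSF13B (BAFF) had 0.126, 0.0783 and 0.107 FPKM against 0, 0.0421 and 0 FPKM, and TNFSF8 (CD30 ligand) had 0.0262 to 0.0672 FPKM against 0 in each NC sample. In a test with no minimum level, TNFSF13B (limma adjusted p = 0.0397) and NGFR (limma adjusted p = 0.0408) passed. The TNFSF13B values rested on at most about 3.25 fragments per sample, and its protein-coding transcripts alone had 0, 0.0783 and 0.0280 FPKM against 0, 0.0421 and 0 FPKM, with overlapping groups. Among the 19 members below the minimum but not at 0 throughout, the groups did not overlap for 5 (TNFSF13B, TNFSF8, NGFR, TNFRSF9 and TNFRSF10C), while 11.9% of all genes at such levels did not overlap. TNFRSF6B (DcR3), a secreted decoy for FASLG, had 0.000544 to 0.503 FPKM, and all of its sequence is shared with the readthrough gene RTEL1-TNFRSF6B. TNFRSF8 (CD30) reached at most 0.247 FPKM, TNFRSF17 (BCMA) 0.176 FPKM, TNFRSF18 (GITR) 0.0998 FPKM, TNFRSF4 (OX40) 0.0966 FPKM and TNFRSF19 (TROY) 0.0514 FPKM.

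Downstream of the receptors, 76 signalling genes were grouped into 6 lists, of which 69 were tested. In limma 22 rose and 8 fell at an adjusted p below 0.05, which is 43.5% called where 35.3% of all genes were (16.4% higher and 18.9% lower). Their median difference on the log2 scale was 0.20, against -0.04 for all genes. The list of deubiquitinases and feedback genes also held TNFAIP2, TNFAIP6 and TNFAIP8. In it 7 of 11 tested genes were higher, TNFAIP6 among them, and 1 was lower, TNFAIP2, beside the same shares of all genes. Its median was 0.39. TNFAIP3 (A20), which removes ubiquitin chains to end NF-kB signalling, had 55.1 ± 3.40 against 32.2 ± 2.14 FPKM (log2 fold change 0.76, limma adjusted p = 0.000656), and its partner TNIP1 had 36.4 ± 4.99 against 19.1 ± 1.18 FPKM (0.89, adjusted p = 0.00142; SD, n = 3 each). CYLD and ZC3H12A rose as well, by 0.56 and 0.39 on the log2 scale (limma adjusted p = 0.00403 and 0.00155).

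In the list of kinases and NF-kB units, 5 of 16 were higher and none was lower (31.25% called, less than the 35.3% of all genes), with a median log2 fold change of 0.20. The members that rose included NFKB2 and RELB, which form the non-canonical dimer. NFKB2 had 55.1 ± 1.63 against 30.4 ± 1.74 FPKM (log2 fold change 0.84, limma adjusted p = 0.000205), and RELB had 8.43 ± 0.640 against 2.87 ± 0.734 FPKM (1.30, adjusted p = 0.00153; SD, n = 3 each). NFKB1 rose by 0.42 and MAP3K14 (NIK), the kinase of the non-canonical route, by 0.62 on the log2 scale (limma adjusted p = 0.00316 and 0.00346), but with protein-coding transcripts only the MAP3K14 difference was 0.02 (adjusted p = 0.980). RELA, the main canonical unit, had 33.5, 15.8 and 19.9 FPKM against 37.6, 39.6 and 37.4 FPKM, below in every sample without passing (log2 fold change -0.77, limma adjusted p = 0.0544). Without OV-BRCA1 sample 1 it passed (-1.07, limma adjusted p = 0.00275), and it passed in no other alternative run.

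Among the adaptors and parts of the TNF receptor complex, 3 of 21 were higher and 3 lower (28.6% called, less than among all genes), with a median of 0.10. BIRC3 (cIAP2), a ubiquitin ligase bound to TRAF2, had the largest change of the 69 tested signalling genes, from 1.57 ± 0.317 to 14.9 ± 1.73 FPKM (SD, n = 3 each; log2 fold change 2.63, limma adjusted p = 4.61e-05). Its relative BIRC2 (cIAP1) had 24.1, 42.1 and 41.2 FPKM against 13.9, 12.8 and 26.7 FPKM, with overlapping groups, and did not pass (log2 fold change 1.00, limma adjusted p = 0.0565), though it did without OV-BRCA1 sample 1 or NC sample 3. RBCK1 (HOIL-1) rose by 0.59 while SHARPIN, its partner in the linear ubiquitin ligase complex, fell by 0.44 on the log2 scale (limma adjusted p = 0.00177 and 0.00286). TRADD, the death domain adaptor of TNFR1 and DR3, fell by 0.49 (adjusted p = 0.00331).

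In the death complex list, 6 of 11 tested genes were higher and none was lower, beside 16.4% and 18.9% of all genes, with a median of 0.24. MLKL, the executor of necroptosis, had 24.5 ± 2.59 against 11.1 ± 0.345 FPKM (log2 fold change 1.07, limma adjusted p = 0.000364; SD, n = 3 each), whereas RIPK3, the kinase that activates it, was listed at 0 in all 6 samples. FADD, the adaptor of the TRAIL receptors and FAS, rose by 0.33 on the log2 scale (limma adjusted p = 0.0102). CFLAR (cFLIP), the inhibitor at the same complex, had 16.4 ± 0.634 against 19.8 ± 2.39 FPKM (SD, n = 3 each) and did not pass (log2 fold change -0.26, limma adjusted p = 0.0775), but passed without NC sample 2 (-0.33, adjusted p = 0.0392) and with protein-coding transcripts only (-0.35, adjusted p = 0.00593). CFLAR passed in no other alternative run. Of 7 genes of ligand and receptor shedding, proteases as well as their regulators, 1 was higher and 3 were lower, beside 16.4% and 18.9% of all genes, with a median of -0.04. The protease SPPL2B fell by 0.76, the metalloproteinase inhibitor TIMP3 by 0.39 and RHBDF1 by 0.50, and RHBDF2 rose by 0.36 on the log2 scale, RHBDF1 and RHBDF2 being rhomboid proteins without protease activity that assist ADAM17 (limma adjusted p = 0.000106, 0.00204, 0.0436 and 0.0401). The calls of RHBDF1 and RHBDF2 were lost with no minimum level (adjusted p = 0.0997 and 0.0801), with protein-coding transcripts only (0.225 and 0.322) and without OV-BRCA1 sample 1 (0.111 and 0.109), OV-BRCA1 sample 2 (0.0729 and 0.111) or NC sample 2 (0.111 and 0.110). RHBDF1 was also lost with median-of-ratios scaling (0.0558) and without OV-BRCA1 sample 3 (0.0713) or NC sample 1 (0.108), and RHBDF2 without NC sample 3 (0.109). Among 8 genes of related ligands, receptors and coreceptors with other names, 3 were tested and SORT1, a coreceptor of NGFR, fell by 0.74 (limma adjusted p = 0.0119).

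**Figure D5:**
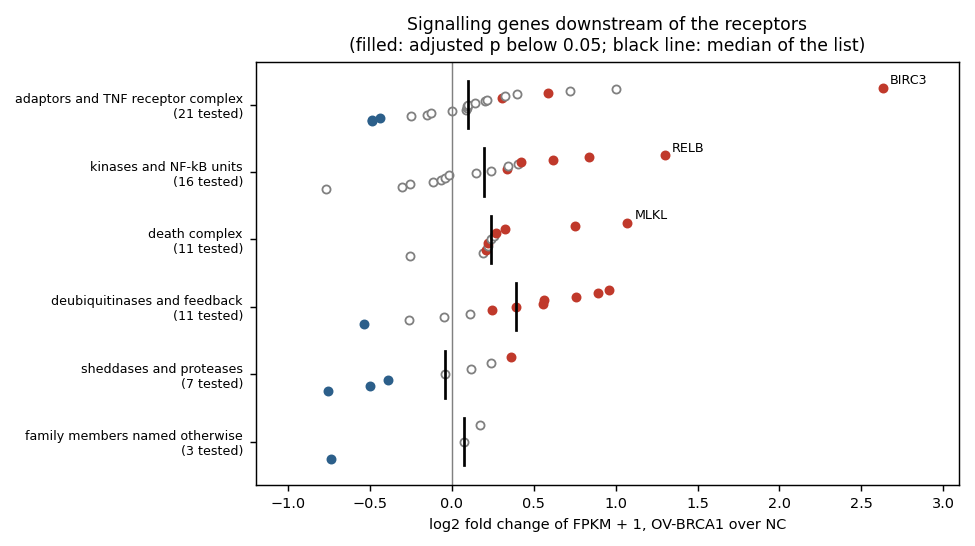
Log2 fold change of FPKM + 1, OV-BRCA1 over NC, for the 69 tested signalling genes in 6 lists. Each dot is a gene, filled where the limma adjusted p was below 0.05, and the black line is the median of the list. Among the filled dots, BIRC3 (2.63), RELB (1.30) and MLKL (1.07) lie beyond 1, and no dot lies below -1.

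Markers of other cells were low. Of 8 lymphocyte markers none reached the minimum level, PTPRC, CD3D and MS4A1 were listed at 0 in every sample, and the list summed to 0.243 to 0.409 FPKM in the OV-BRCA1 samples and 0.581 to 0.942 FPKM in the NC samples. The 6 myeloid markers summed to at most 0.280 FPKM, with FCGR3A at 0. The 6 endothelial and fibroblast markers summed to at most 1.46 FPKM, with VWF and LUM at 0. TNFRSF13C, at 0.349 to 1.57 FPKM, was of the same order as the lymphocyte sum, and NKG7 (0.125 ± 0.0583 against 0.457 ± 0.177 FPKM) and CD3E (0.0921 ± 0.0336 against 0.201 ± 0.0287 FPKM; SD, n = 3 each) were lower in every OV-BRCA1 sample than in any NC sample but did not pass with no minimum level (limma adjusted p = 0.0724 and 0.0593). The B-cell marker CD79A overlapped (0.0789 ± 0.0970 against 0.0893 ± 0.0397 FPKM; SD, n = 3 each), and CD2 was above 0 in OV-BRCA1 sample 1 only. Of 8 epithelial markers, 5 were tested, and they summed to 1593 to 1740 FPKM against 1933 to 1977 FPKM. KRT8, KRT18 and EPCAM rose and KRT17 fell, while KRT5, KRT19 and TP63 were below the minimum level. The rise of KRT8 did not pass with no minimum level (limma adjusted p = 0.0701). TP63 had 0.262 ± 0.0937 against 0.0289 ± 0.0137 FPKM (SD, n = 3 each), without overlap, and passed with no minimum level (limma adjusted p = 0.0260). The part of these marker differences in the members' results was not tested.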

How the data were processed

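Libraries of mRNA from 6 samples of SiHa cells were compared, 3 per group, grouped by the transfection named in their labels. The paper calls them biological replicates, and the labels do not say whether they were separate cultures, so p-values measure the spread between these samples. The FPKM values were computed and deposited by the authors for 199167 transcripts. The submitters' processing notes name FastQC, HISAT2 and hg38 without a version. The quantification tool and its use of strand are not given in the sources used here. The authors tested counts with DESeq, which could not be repeated on FPKM.

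FPKM was summed per gene and named by GENCODE release 29, which holds 198868 of the transcripts. Genes with at least 0.5 FPKM in at least 3 samples (16321) were tested with limma 3.58.1 (trend, R 4.3.3) on log2(FPKM + 1), which understates changes of low genes, with Benjamini-Hochberg adjustment over all of them. For DEGs the adjusted p was below 0.05 and the log2 fold change beyond 1 in either direction. Sums over receptors were compared with exact permutation tests (scipy 1.17.1). The scripts were tested on simulated data. Depth was estimated from the value of 1 fragment in 14216 genes with a single transcript. Only 30.2% to 34.2% of low values fell within 0.1 of whole fragments, so counts were not recovered.

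The members, the signalling lists, the marker lists and the tests were chosen with earlier results of these data known. Every member was accounted for, with each sample's value where it passed, and up to 4 genes of each signalling list with the smallest adjusted p were named. Some genes covered by this rule are not reported here. FAS, TNFRSF10B, TNFRSF14, LTBR and TNFSF13B were given sample by sample after their values had been seen, and RELA, CFLAR and BIRC2 were named then, as were the overlapping and neighbouring genes. The alternatives were a pseudocount of 0.1, no filter, median-of-ratios scaling, the replicate number as a block, protein-coding transcripts only and each sample left out in turn.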

Additional observations from a re-analysis of the deposited data

How the results depend on the processing

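TNFSF10, TNFRSF21 and TNFRSF10A remained DEGs under each alternative run, and CD70, TNFSF9, TNFSF14 and TNFRSF11B kept their adjusted p below 0.05. With a pseudocount of 0.1, DEGs among the members numbered 7 (TNFRSF11B, TNFRSF13C, TNFRSF1B and TNFSF14 added) and among all genes 1280 against 651. With protein-coding transcripts only, 3694 of 11862 genes passed the adjusted p against 5764 of 16321, and 2105 were higher and 1589 lower. Median-of-ratios scaling gave 2924 higher and 2812 lower, against 2674 and 3090. Leaving out each sample in turn gave 3 to 5 DEGs among the members, 5 without NC sample 1 (FAS and TNFSF14 added), 4 to 4 ligands and 4 to 5 receptors past the adjusted p, 24 to 28 signalling genes, and 564 to 663 DEGs and 4268 to 4535 genes past the adjusted p among all genes. TNFRSF13C could not be tested without any NC sample, TNFRSF1B without any OV-BRCA1 sample, or TNFRSF11A with protein-coding transcripts only and without OV-BRCA1 sample 1, NC sample 1 or NC sample 3. The difference changed sign only in members that did not pass. Without single samples, TNFSF13 ranged from -0.034 to 0.15, CD40 from -0.083 to 0.073, TNFRSF11A, in the 3 it was tested in, from -0.084 to 0.063 and TNFRSF10D from -0.041 to 0.049. CD40 was 0.027 with median-of-ratios scaling, and LTBR 0.12 and TNFRSF1A 0.21 with protein-coding transcripts only. The cause was not tested. With the replicate number as a block, 4 ligands, 5 receptors (TNFRSF12A lost, adjusted p = 0.0598), 3 DEGs among the members, 27 signalling genes (RHBDF1 and RHBDF2 among those lost, adjusted p = 0.0676 and 0.0545) and 646 DEGs and 4595 genes past the adjusted p among all genes were called. Deviations of samples with the same number correlated at -0.02, 0.03 and 0.01, so they share only a number and no pairing was used. With no filter, 5 ligands and 6 receptors passed, TNFSF13B and NGFR entering and TNFRSF12A leaving. Values below 1 FPKM rest on few fragments, and the estimated depth limits what can be said of TNFRSF1B, TNFRSF13C and the members under the minimum.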
